A study of Mus musculus with 66 samples.

Results

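CATCH-IT regions at gene promoters were examined in cultured mouse cortical neurons after membrane depolarisation with KCl. The members were the regions of the authors' deposited CATCH-IT table whose gene annotation carried a promoter label, which the files give to regions centred within 3000 bp of a gene start. They numbered 2714 of 53020 listed regions and lay at 2530 genes. A region is called gained where the KCl mean was above the control mean, and lost where it was below. By this reading 1571 promoter regions were gained and 1143 were lost.

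CATCH-IT labels newly made histones with a metabolic tag and pulls down the chromatin that has taken them up, so it reads where old histones were replaced during the labelling. Nucleosomes at active promoters are known to be exchanged more often than those of surrounding chromatin, mostly by placing the variant H3.3, which neurons, as cells that no longer divide, rely on. KCl opens voltage-gated calcium channels and switches on immediate-early genes such as Fos and Arc first, and late-response genes such as Bdnf after them.

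The cultures came from C57bl/6 embryos at E16.5 and were kept for 8 days in vitro. A KCl group and a control group without stimulation, both at 5 hr, had 3 pulldown libraries and 3 input libraries each. No transgene or deletion is named in the labels of either group. All 3 KCl pulldowns were sequenced in one lane and all 3 control pulldowns in another, so lane and treatment cannot be told apart, and every difference below carries this limit. The deposited values are listed without library names, so the libraries are called here by their listed place. The labels number the libraries but do not say for CATCH-IT whether they came from separate cultures, so the spread between libraries may be technical. No source used here says how the deposited p-values treat that spread, so they are not read as a measure of it.

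Every value was a whole multiple, within rounding, of what 1 read was worth in its library. One read stood for 1.34, 0.533 and 2.72 normalised counts in the first, the second and the third KCl library. In the control libraries it stood for 0.316, 1.39 and 1.18. A normalised count of 10 can thus rest on a few reads in one library and on many in another, and reads are given beside part of the values. In a culture of mixed cells, fewer cells of a type and less signal per cell cannot be told apart.

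Sequences from mm9 show how different the DNA under these regions was. The first set holds the 200-base window of strongest change, 5′ to 3′ along the gene's strand, for the first genes of each direction by adjusted p whose window lay upstream of the start and outside every annotated exon. CpG steps, the sites of DNA methylation that are clustered in the CpG islands of many promoters, are in capitals. Flnc (chr6:29381581-29381780, plus strand) and Napsa (chr7:51827281-51827480, plus strand) were gained there. Mir715 (chr17:39980261-39980460, plus strand) and Sfi1 (chr11:3094401-3094600, minus strand) were lost.
Flnc: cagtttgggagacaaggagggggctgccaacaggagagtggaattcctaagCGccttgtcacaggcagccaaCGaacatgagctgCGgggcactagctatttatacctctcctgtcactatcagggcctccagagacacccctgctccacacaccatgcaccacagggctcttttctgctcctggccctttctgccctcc
Napsa: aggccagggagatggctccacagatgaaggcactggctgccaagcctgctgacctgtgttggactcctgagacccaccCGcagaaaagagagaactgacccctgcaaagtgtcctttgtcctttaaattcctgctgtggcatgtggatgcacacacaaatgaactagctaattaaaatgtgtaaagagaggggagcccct
Mir715: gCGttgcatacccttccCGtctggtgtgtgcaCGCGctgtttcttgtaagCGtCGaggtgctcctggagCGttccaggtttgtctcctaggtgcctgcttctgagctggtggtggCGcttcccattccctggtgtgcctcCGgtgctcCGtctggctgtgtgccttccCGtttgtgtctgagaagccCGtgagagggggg
Sfi1: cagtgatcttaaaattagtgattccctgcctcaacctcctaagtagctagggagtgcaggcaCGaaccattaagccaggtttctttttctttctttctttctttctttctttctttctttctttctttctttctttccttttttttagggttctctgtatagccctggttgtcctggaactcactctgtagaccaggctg
The Flnc, Napsa and Sfi1 windows held 3, 1 and 1 CpG steps, and the Sfi1 window held a run of repeated cttt units. The Mir715 window held 12, at a GC content of 61.5%.

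The second set holds the 200 bases before the start of genes whose region was centred almost on the start itself, again chosen as the nearest of each direction with no annotated exon in the window. These are Nms (chr1:38995793-38995992) and Kdelr3 (chr15:79346637-79346836), both gained, and Acy3 (chr19:3986460-3986659) and Otud7b (chr3:95908249-95908448), both lost, all on the plus strand.
Nms: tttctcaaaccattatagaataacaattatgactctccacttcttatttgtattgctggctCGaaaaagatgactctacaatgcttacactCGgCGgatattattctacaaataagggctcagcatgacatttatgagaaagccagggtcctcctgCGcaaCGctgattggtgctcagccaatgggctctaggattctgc
Kdelr3: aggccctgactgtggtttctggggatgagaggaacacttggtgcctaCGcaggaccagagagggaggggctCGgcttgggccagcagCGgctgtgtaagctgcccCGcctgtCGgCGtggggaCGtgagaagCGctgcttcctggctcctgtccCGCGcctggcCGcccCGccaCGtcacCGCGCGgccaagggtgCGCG
Acy3: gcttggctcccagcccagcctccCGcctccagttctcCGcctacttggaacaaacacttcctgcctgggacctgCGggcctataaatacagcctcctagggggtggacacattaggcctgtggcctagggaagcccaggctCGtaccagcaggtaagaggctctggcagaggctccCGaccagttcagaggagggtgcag
Otud7b: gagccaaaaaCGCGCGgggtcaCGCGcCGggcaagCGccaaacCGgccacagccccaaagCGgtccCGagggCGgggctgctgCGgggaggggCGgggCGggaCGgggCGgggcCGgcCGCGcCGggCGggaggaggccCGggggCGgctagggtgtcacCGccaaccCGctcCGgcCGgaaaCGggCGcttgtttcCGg
Kdelr3, a receptor that returns proteins to the endoplasmic reticulum, had 18 CpG steps in these bases and Otud7b, a deubiquitinating enzyme, had 30. Nms, which encodes the peptide neuromedin S, and Acy3, an aminoacylase, had 5 each. Gained and lost regions thus both occurred at CpG-rich and at CpG-poor starts.

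Promoters gained and lost CATCH-IT signal in nearly the same proportion as the rest of the genome. Of the promoter regions 57.9% were gained (exact Clopper-Pearson 95% interval 56.0 to 59.8%, counting regions only), beside 57.3% of all listed regions and 57.2% of those outside promoters. In gene bodies the share was 57.3%. All 2714 promoter regions had an adjusted p at or below 0.05 in the authors' deposited table, where the same held for 100.0% of all listed regions (57.3% gained and 42.7% lost), so passing it does not set a promoter region apart. Their adjusted p ran from 4.15e-07 to 0.000291 in the authors' deposited table. The 3 KCl and 3 control values did not overlap in 2699 promoter regions (99.4%), beside a background of 99.2%.

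The share of each library's listed signal that fell in promoter regions was 5.02, 5.29 and 5.11% in the KCl libraries and 4.98, 5.00 and 4.93% in the control libraries. All 3 KCl libraries were above all 3 control libraries. The means were 5.14 ± 0.134% and 4.97 ± 0.0310% (SD, n = 3 each), a difference of 0.170 percentage points (two-sided exact permutation test, p = 0.1, the smallest that 3 against 3 libraries allow). Within 500 bp of a gene start the order did not hold. There the KCl share was 0.786 ± 0.0505% and the control share 0.811 ± 0.0364%, a difference of -0.0248 points (exact permutation test, p = 0.4, n = 3 each). Listed signal in the KCl libraries came almost entirely from gained regions and in the control libraries from lost ones. The shares and their p therefore largely restate the counts of gained and lost regions, listed on these same libraries, and are no separate evidence of a change at promoters.

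Most promoter regions had reads in one group and none in the other. Every gained promoter region had reads in all 3 KCl libraries, and in 1525 of 1571 (97.1%) the control libraries held none. Every lost region had reads in all 3 control libraries, and in 1138 of 1143 (99.6%) the KCl libraries held none. This was a trait of the whole list: the lower group held no reads in 98.1% of promoter regions and in 97.7% of all listed regions. Reads in all 3 libraries of the higher group were found in 53000 of all 53020 listed regions. The number of reads was small. A gained region held a median of 17 reads over its 3 KCl libraries (7 to 74), and a lost region a median of 20 over its 3 control libraries (14 to 100). Against a floor of 3 reads over the empty group, taken at its largest worth of 1 read, the median gained region was at least 3.95-fold higher after KCl and the median lost region at least 2.44-fold lower. The floor is a mean of 1.39 normalised counts in the control group and 2.72 in the KCl group, so bounds for gained and lost regions are not on an equal footing. The authors' log2 fold change is infinite in all but 51 of the 2714 regions for the same reason.

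The counts of reads piled up at 6 and 12. The third control library held exactly 12 reads in 752 of the 1143 lost promoter regions (65.8%) and exactly 6 in another 15.8%. It was the highest library of its group in 70.3% of them. The second KCl library held exactly 12 reads in 24.7% and exactly 6 in 20.5% of the gained regions. The name of the deposited table points to a duplicate setting of 6, and none of the sources used here says how it was applied. At least 1 library of the higher group stood at a multiple of 6 in 58.3% of gained and 95.9% of lost promoter regions, beside 59.6 and 94.8% over all listed regions. In 99 gained and 116 lost promoter regions all 3 libraries held exactly 6 reads. The part of this pile-up in the calls was not tested. Where no library of the higher group was at a multiple of 6, 702 promoter regions were left, and 655 of them (93.3%) were gained. Over all listed regions 13427 were left by the same rule, 12256 gained and 1171 lost. The rule took out a larger part of the lost than of the gained regions, so the gained share largely follows from it.

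**Figure D1:**
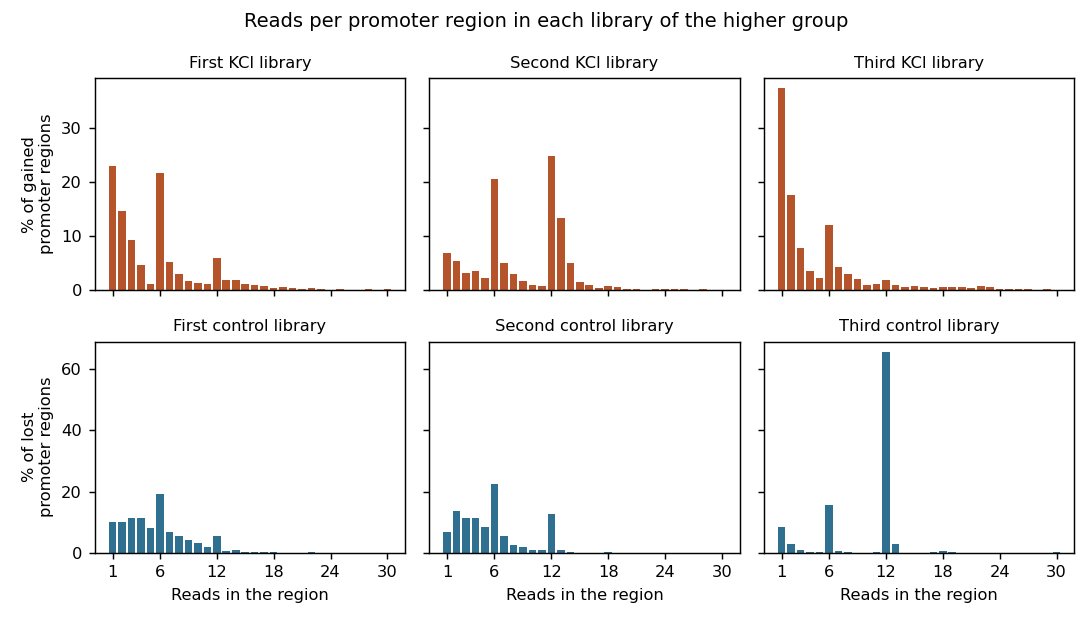
Share of promoter regions (y axis, percent) by number of reads in the region (x axis, 1 to 30 reads) in each library of the higher group; the upper row shows the 1571 gained regions in the KCl libraries and the lower row the 1143 lost regions in the control libraries. Bars at 6 and 12 reads stand above their neighbours, most of all at 12 reads in the third control library (65.8% of lost regions).

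The most frequent sets of reads show what such regions look like. Reads of 1, 12 and 1 in the 3 KCl libraries, in their listed order, occurred in 108 gained regions, and reads of 6, 6 and 6 in 99. Among lost regions 6, 6 and 6 led with 116, followed by 1, 12 and 1 with 44. One library carried over 50% of the normalised signal of its group in 74.1% of gained and 81.5% of lost promoter regions. It carried over 80% in 2.86% of gained and 21.2% of lost ones. With both directions together these shares were 77.2 and 10.6% of promoter regions, beside 78.3 and 9.95% of all listed regions.

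The directions differed in width. The most frequent width, 380 bp, was that of 1266 promoter regions (46.6%), and 75.8% of these were gained. Of the 1305 narrower regions (200 to 360 bp) 36.4% were gained, and of the 143 wider ones (400 to 740 bp) 95.8% were gained, with only 6 lost. All listed regions divided the same way, at 75.3, 35.6 and 95.5% gained. The deposited windows were 200 bp wide and started on a grid of 20 bp, and all such windows that share a single point together span 380 bp. Of the promoter regions of that width 206 (16.3%) held 6 reads in each of the 3 libraries, beside 9 (0.690%) of the narrower ones and none of the wider ones. Narrower regions had a library at 12 reads in 77.0% of cases.

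**Figure D2:**
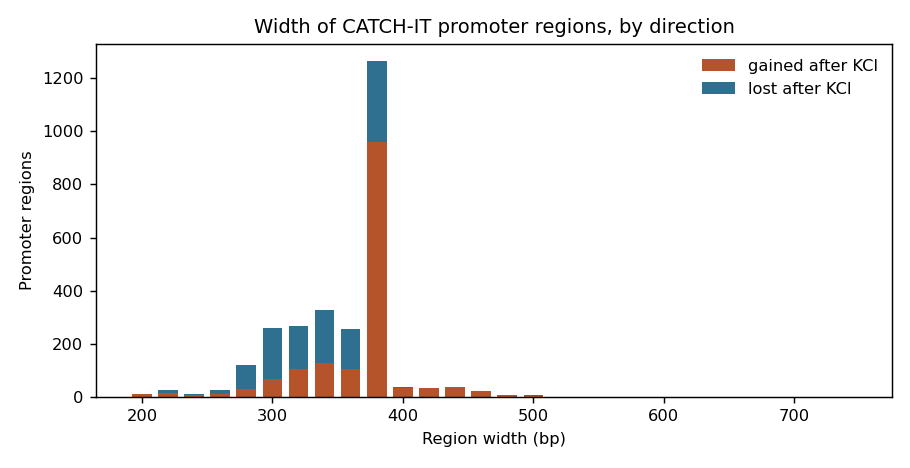
Number of promoter regions (y axis) by region width (x axis, bp), stacked by direction after KCl. The 380 bp class holds 1266 regions, mostly gained; the narrower classes are mostly lost, and the 143 wider regions are nearly all gained.

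The wider regions carried more reads, with a median of 36 and a median group mean of 18.3 normalised counts, beside 18 reads at 380 bp and below. The widest was at Mras, a Ras-related GTPase, with 740 bp in an intron (chr9:99335041-99335780), its centre 1719.5 bp downstream of the start. Mras had 44.1, 10.1 and 24.5 normalised counts in the 3 KCl libraries (33, 19 and 9 reads) and 0 in every control library, at least 18.9-fold higher. Ddx23, an RNA helicase of the spliceosome, followed with 700 bp (chr15:98491761-98492460, intron). Its KCl values were 20.0, 12.2 and 51.6 against 0 in the controls, a mean of 28.0 ± 20.9 (SD, n = 3) and at least 20.2-fold higher. Nxnl1, a thioredoxin-like gene known from photoreceptors, had 620 bp and KCl values of 18.7, 5.33 and 32.6 against 0. None of the read counts of Mras and Ddx23 was a multiple of 6. The widest lost regions were 500 bp at Sfi1 and Top2a and 440 bp at Mir715.

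Distance to the gene start gave no sharp peak. Of the promoter regions 218 (8.03%) were centred within 250 bp of the start, 715 (26.3%) between there and 1000 bp, and 1781 (65.6%) beyond. Per 100 bp this came to 40.0 regions in the 250 bp before the start and 47.2 in the 250 bp after it, beside 38.1 at 1000 to 3000 bp upstream and 51.0 at the same distance downstream. More regions lay inside the gene than before it: 1543 (56.9%) were downstream, and the median position was 394.5 bp downstream. Gained regions had a median of 459.5 bp and lost ones of 287.5 bp. The gained share was 55.7% upstream and 59.6% downstream, and the exact intervals, which count regions only, overlap (52.8 to 58.6% and 57.1 to 62.0%).

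**Figure D3:**
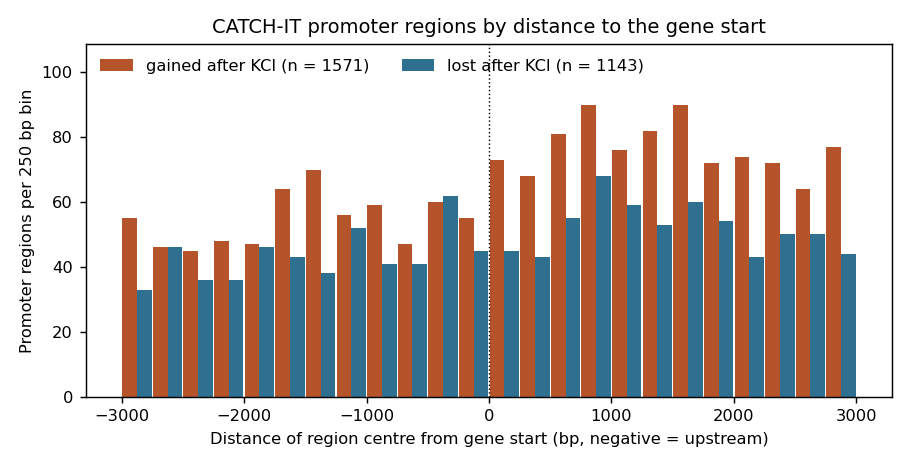
Number of promoter regions per 250 bp bin (y axis) by distance of the region's centre from the gene start (x axis, bp, negative upstream), for gained and lost regions side by side. Both directions spread over the whole 3000 bp on each side, with more regions downstream (1543) than upstream (1171) and no peak at the start.

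Sequence near starts was taken up about as often as its length. Sequence within 3000 bp of the 22350 protein-coding starts of the GENCODE annotation makes up 4.83% of the genome sequence, and promoter regions made up 5.12% of the listed regions. For 250 bp the values were 0.423% of the sequence and 0.411% of the regions. The files use RefSeq starts, so the 2 sets of starts are not the same. By the position of their centre in the GENCODE annotation, 1309 promoter regions (48.2%) fell in introns, 1042 (38.4%) outside genes, 176 in coding exons, 127 in UTRs and 60 in non-coding exons.

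The regions closest to a start were found in both directions. Nms had its gained region 2.5 bp before the start, with 7, 1 and 3 reads in the KCl libraries and none in the controls. Kdelr3, 3.5 bp after its start, had 3, 12 and 1 reads. The lost region of Fbxw13, an F-box gene, was centred 7.5 bp after the start with 4, 12 and 2 control reads and no KCl reads. Trim59, a TRIM-family ubiquitin ligase, and Rassf6, a Ras-association gene, had lost regions 17.5 and 18.5 bp before their starts, each with 12 reads in the third control library and 1 or 2 in the others. Each of the lost 3 took over 80% of its group's signal from 1 library (82.1, 82.1 and 80.7%). Of the printed starts, Acy3 had 2, 12 and 1 control reads and Otud7b had 8, 6 and 6, with no KCl reads at either.

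The CpG content of gene starts was alike for genes with gained and with lost regions. It was higher than over all protein-coding starts, though the starts compared came from different annotations. The 300 bases from 250 before to 50 after the start were read. Of the 2445 genes with a coding transcript 53.4% had an observed to expected CpG ratio above 0.6, a usual mark of a CpG island. Among 22345 protein-coding starts of the GENCODE annotation the share was 45.2%. Starts of the 2445 genes were those given with the regions, from RefSeq, so the starts compared are not defined alike. The part of this in the difference was not tested. The exact 95% intervals, which count genes only, were 51.4 to 55.4% and 44.5 to 45.8%. The share was 52.9% for genes with only gained and 53.9% for genes with only lost regions. For the 210 genes whose region lay within 250 bp of the start it was 46.2%. The region's own DNA was less rich, since most regions lay far from the start: the median GC content was 47.1% in gained and 46.6% in lost promoter regions, beside 43.0% over all listed regions. Within 250 bp of the start it was 57.4 and 56.0%.

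The 8 gained promoter regions with the smallest adjusted p (4.15e-07 in the authors' deposited table, shared by many regions, with ties ordered by the gap between the groups and predicted genes with clone or number names left out) were at Mras, Zfp553, Ddhd1, Trak2, Itgb1bp3, Tmem59l, Slc39a1 and Ttc9b. Their control values were 0 in every library. Ttc9b, which encodes a protein with tetratricopeptide repeats, was the most even, at 8.02, 7.46 and 8.15 normalised counts after KCl (mean 7.88 ± 0.367, SD, n = 3, at least 5.68-fold higher). Slc39a1, a zinc importer, had 9.35, 7.46 and 8.15. Trak2, an adaptor that links mitochondria to kinesin, had 9.35, 7.46 and 19.0, and the phospholipase gene Ddhd1 had 9.35, 8.52 and 19.0. In both, the third KCl library was about as high as the other two together. Zfp553, a zinc finger gene, had 8.02, 14.9 and 16.3, with 28 of its reads in the second library. Itgb1bp3, now named Nmrk2, a kinase of nicotinamide riboside, and Tmem59l, a membrane protein gene, both had 16.0 and 8.15 in the first and the third library, with 10.1 and 9.59 in the second. The order of choice favours regions whose lowest library is high, so that evenness is no finding, and the third KCl library of Itgb1bp3, Tmem59l, Slc39a1 and Ttc9b held 3 reads.

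**Figure D4:**
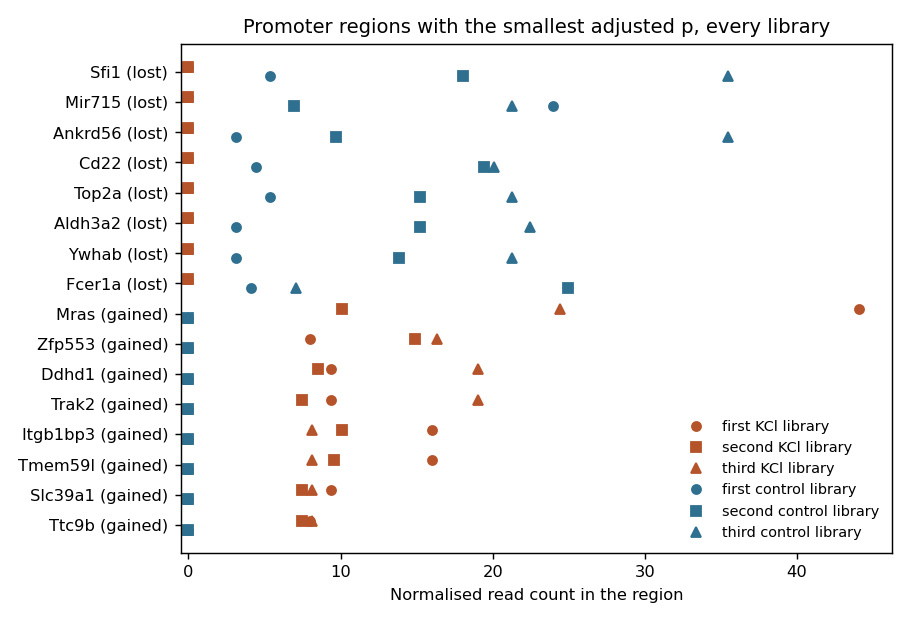
Normalised read count (x axis) in each of the 6 libraries for the 8 gained and 8 lost promoter regions with the smallest adjusted p; colour gives the group and marker shape the listed place of the library. In each gained region the 3 control points lie at 0, in each lost region the 3 KCl points lie at 0, and the first control library is the lowest of its group in every lost region except Mir715.

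The 8 lost regions chosen in the same way, again without predicted genes such as 1300002K09Rik, were at Sfi1, Mir715, Ankrd56, Cd22, Top2a, Aldh3a2, Ywhab and Fcer1a, and KCl values were 0 throughout. Sfi1, a centrin-binding gene, had 5.36, 18.02 and 35.5 normalised counts in the control libraries (17, 13 and 30 reads), a mean of 19.6 ± 15.1 (SD, n = 3) and at least 7.22-fold lower after KCl. Sfi1 had 4 promoter regions, the most of any gene, of which 3 were lost and 1 was gained. The window printed for Sfi1 held a run of repeated cttt units, and whether its reads came from this place alone was not tested. Mir715 had 23.98, 6.93 and 21.3, the first of them from 76 reads. Its region lies in the chromosome 17 copy of the ribosomal DNA unit, a sequence present in many copies, so reads from other copies cannot be told apart from it. Top2a, the topoisomerase of dividing cells, had 5.36, 15.2 and 21.3. Ywhab, a 14-3-3 protein gene, had 3.16, 13.9 and 21.3, and Aldh3a2, a fatty aldehyde dehydrogenase, had 3.16, 15.2 and 22.5. Cd22 and Fcer1a, receptors of B cells and mast cells, had means of 14.6 ± 8.86 and 12.0 ± 11.3 (SD, n = 3). Cd22 also had another lost region, and a gained one centred 2275.5 bp downstream of its start (mean 4.65 after KCl). Ankrd56, now named Sowahb, had 3.16, 9.70 and 35.5. The first control library gave the lowest value in 7 of these 8 regions and the highest in Mir715.

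Gene lists are read below against the 11.1% of all protein-coding genes in RefSeq that had a promoter region, and against the 57.9% of promoter regions that were gained. Lists drawn as name families count RefSeq names of every gene type, so their shares do not compare directly with the 11.1%. Of the 40 immediate-early genes on the list 2 had a promoter region (5.00%, beside 11.1%). Trib1, a pseudokinase gene, was gained 127.5 bp before its start with 1, 13 and 1 KCl reads, and Klf6, a Krüppel-like factor, was lost 343.5 bp before its start with 6 control reads in each library. Fos, Egr1, Arc and Npas4 had no listed promoter region, which does not show that turnover there was unchanged, since only changes the authors called are listed.

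Late-response genes had 7 of 30 with a promoter region (23.3%, beside 11.1%), 4 only gained and 3 only lost. Bdnf, the neurotrophin induced by activity, was gained in an intron 777.5 bp downstream of the start (chr2:109516661-109517000), with 2.67, 6.39 and 5.44 normalised counts after KCl and 0 in the controls. These came from 2, 12 and 2 reads, and the bound was at least 3.49-fold higher. Sorcs3, a sorting receptor, had 2 gained regions. One in coding sequence had 8.02, 3.20 and 48.9 after KCl (81.3% from the third library) and one in an intron had 10.7, 3.73 and 16.3. Cdkn1a, a cell cycle inhibitor, was gained with 6 reads in each KCl library, and Scg2, a granin of secretory vesicles, with 1, 13 and 1. Nrn1, Inhba and Gpr3, which encode neuritin, an activin subunit and a receptor that raises cyclic AMP, were lost. Their control reads were 1, 12 and 2 for Nrn1, 12, 6 and 6 for Inhba, and 3, 5 and 12 for Gpr3. Of the 8 late-response regions, all but that of Scg2 had at least 1 library at a multiple of 6.

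Transmitter receptors moved both ways. Of 26 glutamate receptor genes 5 had a promoter region (19.2%, beside 11.1%), 2 gained and 3 lost. Grin2a, a subunit of NMDA receptors, was lost with 1.89, 15.2 and 14.2 control counts (mean 10.4 ± 7.42, SD, n = 3, at least 3.84-fold lower). The AMPA receptor gene Gria4 and the metabotropic receptor gene Grm5 were lost as well, with means of 7.88 and 8.13. Grm3, another metabotropic receptor, was gained with 4.01, 6.92 and 5.44 after KCl, and Grid1, a delta receptor, with 8.02, 6.39 and 16.3 against a single control read. Of 23 GABA and glycine receptor genes 7 had a region (30.4%, beside 11.1%). Gabrb2 and Glra3 were among the 3 gained, and Gabbr2, Gabrb1 and Gabrd were among the 4 lost. Gabrb2, a beta subunit of GABA-A receptors, had 8.02, 0.530 and 13.6 counts after KCl, and Glra3, a glycine receptor subunit, had 1.34, 4.79 and 2.72, both against none in the controls. Gabbr2 and Gabrb1 each had 12 reads in the third control library, and Gabrd had 12 in the second.

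Synaptic genes with a promoter region were found in both directions. The presynaptic list had 8 of 37 genes with a region (21.6%, beside 11.1%): 5 only lost, 2 only gained and 1 with both. Bsn, a giant scaffold of the release site, was lost with 1.26, 16.6 and 8.28 control counts, Nsf, which recycles the fusion machinery, with 3.16, 6.93 and 14.2, and the vesicle protein gene Vamp1 with 0.630, 19.4 and 1.18. Syn2 and Sv2a, genes of vesicle proteins, were gained. Cplx2, a regulator of fusion, was gained with 24.1, 3.73 and 21.7 after KCl, against 12 reads in the first control library. The gene with both kinds of regions was among Syn2, Sv2a and Cplx2. The postsynaptic list had 3 of 27 (11.1%, beside 11.1%), all gained: Dlg2 (3, 32 and 1 reads), Homer2 (12, 1 and 2) and Magi2 (1, 12 and 1). In each of these 3 scaffold genes 1 library gave most of the signal (71.7, 72.9 and 61.1%). The difference in direction between the lists was not tested.

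The voltage-gated channel list, which also held the calcium-activated channel gene Kcnn3, had 9 of 88 genes with a region, 4 gained and 5 lost. Kcnn3, a calcium-activated potassium channel, was gained with 4.01, 7.46 and 2.72 counts, and the calcium channel genes Cacna1b and Cacna1e were lost, each with 12 reads in the third control library. Adhesion and guidance genes had 13 of 126, with 7 gained and 6 lost. The clustered protocadherins, cell surface proteins that give neurons an identity, had 7 of 58, with 6 gained and 1 lost. Pcdhga1 had 16.0, 4.79 and 51.6 after KCl and none in the controls.

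Regulators of transcription and chromatin had regions in both directions, with different counts from list to list. All 4 genes of the neuronal basic helix-loop-helix list with a region, of 25, were gained, in 6 regions. Among them were Neurod6, with 8.02, 3.20 and 38.1 counts, the notch target Hey2, with 20.0, 2.66 and 19.0, and Neurod1, with 6 reads in each KCl library. The list of activity-linked regulators had 3 of 42, all gained. Camk4, a calcium-dependent kinase that acts on CREB, had 18.7, 5.86 and 32.6, a mean of 19.1 ± 13.4 (SD, n = 3). Dnmt1, the maintenance DNA methyltransferase, had 16.0, 6.39 and 46.2, and the CREB coactivator gene Crtc1 had 1.34, 4.79 and 5.44. Genes of histone chaperones and exchange factors had 5 of 27: 4 gained and 1 lost. Nap1l4 and Nap1l2, which carry H2A and H2B, had 16.0, 6.39 and 59.8 and 8.02, 3.73 and 48.9, with over 70% of the signal in the third library. Npm1 was gained with 1, 24 and 2 reads, and Supt6h, a gene of transcription elongation, was lost with 6 control reads in each library. Homeobox factors had 6 gained and 4 lost, and zinc finger genes 30 only gained and 19 only lost. Beside the 57.9% of all promoter regions that were gained, the short lists rest on 3 to 5 genes each, and no difference between lists was tested.

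The histone genes themselves had 7 of 112 names with a region, 3 gained and 4 lost. Hist1h3e, an H3.1/2-type gene, was gained upstream with 8.02, 3.73 and 13.6, and Hist1h2bf was gained 27.5 bp after its start with 4.01, 3.20 and 2.72 (mean 3.31 ± 0.652, SD, n = 3). Hist2h3b, Hist1h1c and Hist4h4 were lost, each with 12 reads in the third control library. Because histone genes are near-identical copies, reads may be shared among them.

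Metabolic and housekeeping genes had regions in either direction. The respiratory chain and ATP synthase list had 15 of 110 genes, 5 only gained and 10 only lost. Cox8a, Uqcrc1 and Ndufa3, subunits of complexes IV, III and I, were lost with means of 8.80, 8.74 and 9.10, and the ATP synthase gene Atp5g2 was gained with 8.02, 3.20 and 38.1. Proteasome genes had 7 of 57, 5 only gained, and translation factors 9 of 73, 7 gained. Cytosolic ribosomal proteins had 7 of 89 (4 gained, 3 lost), mitochondrial ones 8 of 84 (3 only gained, 4 only lost), and splicing factors 13 of 90 (7 gained, 6 lost). The larger families lay near the background: the ubiquitin and SUMO pathway had 28 only gained and 18 only lost, solute carriers 26 and 19, and RAB and RAS GTPases 12 and 8. Gapdh, used as a reference gene for its steady expression, had a lost region 2069.5 bp downstream of its start with 3, 11 and 12 control reads and none after KCl. Tbp, the TATA-binding protein, was gained with 6 reads in each KCl library.

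**Figure D5:**
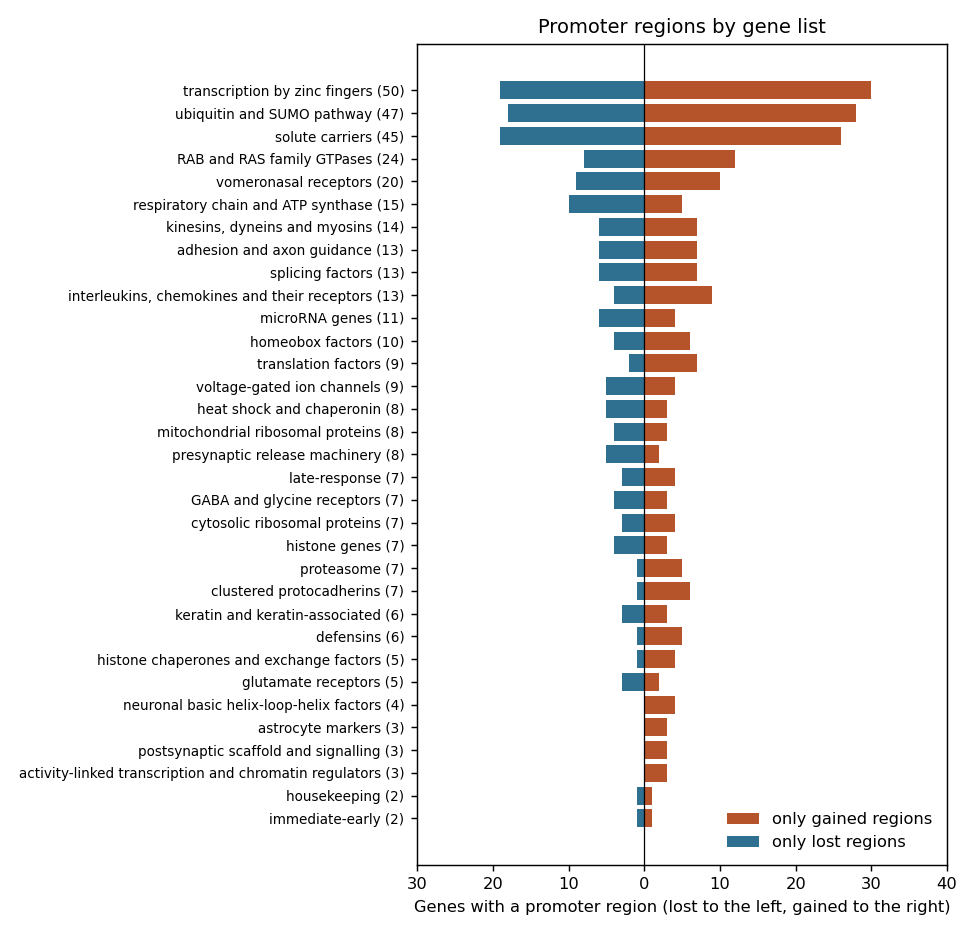
Number of genes with only gained (right of 0) and only lost (left of 0) promoter regions (x axis) in each gene list (y axis, number of genes with any promoter region in brackets); lists with under 2 such genes, olfactory receptors and predicted genes are left out. The large families shown divide about as all promoter regions do, while the short lists lie on either side. Olfactory receptors, left out, had 51.0% of their regions gained, beside 57.9% of all promoter regions.

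Markers of other cells in the culture were also on the table. Of 9 astrocyte markers 3 were gained: Aldh1l1 (1, 13 and 1 reads), the glutamate transporter gene Slc1a3 (1, 12 and 2) and Sox9 (3, 2 and 6). Of 9 microglia markers, C1qa was gained with 8, 13 and 1 reads. Of 10 neuron markers Snap25 was lost, with 0.320, 16.6 and 1.18 control counts and 91.7% of the signal in the second library. Interneuron, oligodendrocyte lineage and endothelial or pericyte lists had no promoter region. The table lists changed regions only, so it gives no level by which the labelled cell type could be checked, and the part of other cells in these results was not tested.

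Few promoter regions met a region of another assay. The series also holds tables of H3.3, taken in these cultures after KCl for 30 min, 2 hr and 5 hr and in hippocampal nuclei, sorted by the neuronal marker NeuN, from mice aged 7 weeks, either normally housed or given an enriched cage for 4 weeks, and of H3.1/2 after 5 hr. Overlap by at least 1 bp was found for 8 promoter regions over all 6 tables, and in 3 of them the direction was the same. At 5 hr, the time of CATCH-IT, none of the 667 H3.3 regions overlapped one, and 11 of the 83 genes with an H3.3 promoter region also had a CATCH-IT promoter region (13.3% of those and 0.435% of the CATCH-IT genes), beside the 11.1% of protein-coding genes that had one. For 30 min and 2 hr the shares were 13 of 103 (12.6%) and 13 of 120 (10.8%). In NeuN-positive nuclei it was 22 of 197 (11.2%), and in NeuN-negative nuclei 22 of 138 (15.9%).

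The overlapping regions in culture went opposite ways. Matn2, a matrix protein gene, had its CATCH-IT region gained at 5 hr (1, 16 and 1 reads, none in the controls) and H3.3 lower at 30 min, at 2.90 ± 1.66 after KCl against 12.3 ± 2.93 (SD, n = 3 each). Bnip2, a regulator of small GTPases, was gained in CATCH-IT with 3, 12 and 1 reads. Its H3.3 at 2 hr was lower, 1.47 ± 1.09 against 10.7 ± 0.452 (SD, n = 3 each). Mcf2l, an exchange factor for small GTPases, was lost in CATCH-IT (10, 3 and 12 control reads) and had higher H3.3 at 2 hr, 15.7 ± 3.54 against 5.00 ± 0.0900. The 2 NeuN-positive overlaps that went the same way were Hrct1 and Spg20. Hrct1 had 12, 11 and 19 CATCH-IT reads after KCl and none in the controls, and H3.3 of 15.7 and 17.1 in enriched against 3.01 and 3.08 in normally housed mice. Spg20 had 2, 6 and 2 CATCH-IT reads and H3.3 of 25.1 and 27.4 against 3.01 and 11.3. Cyb5r3 and Rnf165 went opposite ways there, and 2610044O15Rik went the same way in NeuN-negative nuclei. These tables were normalised separately, so no level was compared across them.

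Input bore on few of the regions. The authors' ratio of pulldown to input was finite in both groups for 204 of the 2714 promoter regions (7.52%), and in all 204 it moved in the same direction as the normalised counts. A group mean of 0 gives a ratio of 0 whatever the input, and the lower group was at 0 in 98.1% of promoter regions, so this direction was largely fixed beforehand. In the others input held no signal in at least one group, so the ratio says nothing there.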

How the data were processed

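Chromatin pulled down by CATCH-IT was sequenced in 3 KCl and 3 control libraries, with 3 inputs each. The submitters' processing notes name Bowtie (0.12.7), bedtools (2.16.2) and the build mm9; no source used here names the region caller. Per the file headers, the authors deposited for each region the normalised read counts of each group, their mean (a coverage signal), a ratio of that mean to input, a log2 fold change, and a p-value with its adjusted p-value, all used as deposited. Only called regions are listed, so no count model was fitted again. Library totals were not used here, and precision is set by the reads per region. No per-sample column was left unused.

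Reads were recovered by dividing values by what 1 read was worth, which worked within 0.1 of a whole number for 100.0% of values; the search for that step was checked on multiples of a known step and recovered it for 6 of 6 libraries. Intervals and floors (3 reads over a group) cover counting error only. Shares of signal were compared by exact permutation over libraries. Regions were annotated with GENCODE vM1 on mm9, and 99.1% of 2530 gene names were matched to RefSeq. Because the log2 fold change is infinite in most regions, lists are described by counts and not by its median. The members, gene lists, motifs and tests were chosen with earlier results of these data known. Genes named are, per direction, the 8 with the smallest adjusted p, the 3 widest and the 3 nearest the start, up to 3 per list, all immediate-early and late-response members, and those overlapping another table; Fos, Egr1, Arc, Npas4 and the genes whose sequence is printed were named besides. Some genes that fall under this rule are not reported here. Python 3.11.15, NumPy 2.4.6, pandas 2.3.3, SciPy 1.17.1, pysam 0.24.0 and Matplotlib 3.10.9 were used.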

Additional observations from a re-analysis of the deposited data

How the results depend on the processing

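The gained share of promoter regions, 57.9%, was 42.3% without the 380 bp regions, a reversal of the majority, 77.2% among regions with a window p at or below the median, and 66.7% by the ratio to input, where it was finite. For 2 further alternatives the choice was made after seeing the data. The share was 93.3% without regions that had a library at a multiple of 6 reads, and 61.0% without those that had 2 or more. The first of these left out 95.9% of lost but 58.3% of gained promoter regions, which largely sets its share. Leaving out each library in turn gave 57.8 to 57.9%, which was fixed in nearly all regions because every one had reads in 3 libraries of its higher group and the other group was at 0 in 98.1%, and the other alternatives stayed within the interval of 56.0 to 59.8%. The causes were not tested. The difference in the promoter share of signal, 0.170 points, was -0.0248 within 500 bp of a start and ran from 0.0972 to 0.228 points with each library left out. Leaving out the 380 bp regions left 1448 promoter regions, both for those with an adjusted p of 0.05 or less and for those with reads in 2 or more libraries, which follows from fewer regions counted. The median distance kept its side, at 522.5 bp without 380 bp regions and 384.5 bp with 1 region per gene. Dividing by the worth of 1 read cancels within a library, so whole reads could not change the share of signal. No paired analysis was possible because the packed values carry no library names. Low reads limit every region: a median of 18 reads over 3 libraries.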

Other observations

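Genes of tissues other than brain had promoter regions in both directions. Of 1428 olfactory receptor names 93 (6.51%) had one, 47 only gained and 43 only lost, and of 649 vomeronasal receptor names 20 had one, 10 only gained and 9 only lost. These families count names of every gene type, so the shares do not compare directly with the 11.1% of protein-coding genes. Olfr661 was gained with 19, 9 and 5 reads in the KCl libraries and none in the controls, and Olfr828 was lost with 10, 10 and 12 control reads and none after KCl. Interleukins, chemokines and their receptors had 13 of 132 genes, 9 gained and 4 lost. Il17d, a cytokine gene, was gained with 12, 12 and 25 reads, and Il2ra, a receptor subunit of T cells, was lost 32.5 bp from its start with 6, 8 and 12. Defensins had 6 of 83 (5 gained, 1 lost) and keratin genes 6 of 111 (3 and 3). Homeobox factors had 10 of 118, with 6 gained and 4 lost, and among them Hoxc12 was gained with 14, 7 and 10 reads.

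Of 1181 microRNA names 11 had a promoter region, 4 only gained, 6 only lost and 1 with both. Mir9-1 and Mirlet7a-2, which encode microRNAs abundant in neurons, were lost with 15, 5 and 12 and with 9, 3 and 12 control reads. Mir34a was gained 2991.5 bp before its start with 8, 1 and 1 reads and Mir183 with 1, 13 and 7. Motor proteins had 14 of 93 genes (7 only gained, 6 only lost, 1 both). The gene with both was Dnahc9, an axonemal dynein, with 6, 6 and 10 KCl reads in one region and 8, 12 and 8 control reads in the other. Heat shock and chaperonin genes had 8 of 84, with 3 gained and 5 lost. Predicted genes had 248 with a region, 135 only gained and 104 only lost.

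In all, 103 genes had both gained and lost promoter regions. Flnc, a filamin of muscle, was gained 1421.5 bp upstream of its start (8, 13 and 3 KCl reads) and lost 138.5 bp downstream (2, 12 and 1 control reads), with the other group at 0 in each. Setd2, a histone methyltransferase, had 3 gained regions within 3000 bp of its start, and no other gene had 3 regions that were all gained.

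In the 300 bases around the start, the GC box (GGGCGG, both strands) was found in 54.1% of genes with a promoter region and in 43.5% of all protein-coding starts, and the EGR site (GCGNGGGCG, which can overlap a GC box) in 10.3 and 7.23%. The cyclic AMP response element (TGACGTCA) was found in 2.70 and 2.33%, and the AP-1 site (TGANTCA) in 6.05 and 6.93%. Genes with only gained and only lost regions had the GC box in 54.0 and 53.4%. Matches are descriptions of the sequence. These shares move with its GC content, whose median was 58.7% at genes with a region and 55.3% over all starts. Starts of genes with a region came from RefSeq and all starts from GENCODE, so the shares compared rest on unlike starts.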
